A study of Homo sapiens with 3 samples.

Results

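Integrins and laminins are the receptors and the sheet-forming matrix proteins through which an epithelial tumour cell holds on to its basement membrane, and 32 of their genes were read out of a deposited RNA-seq table of 61550 genes. The genes were chosen by symbol: 16 integrin alpha subunits, 7 integrin beta subunits and 9 laminin chains. Subunits encoded on chromosome 7 were left out, and other subunits outside these 32 were not analysed here. The libraries came from HK1, an established nasopharyngeal carcinoma line, grown together with activated CD8+ T cells before collection, so no library shows the line without T cells. The WT group held 1 library. The FLI1 knockout (KO) group held 2 libraries, from cells carrying the guide sgFLI1-1 or sgFLI1-2 against FLI1, an ETS-family transcription factor. The libraries are called KO1 and KO2 after the columns of the table. The number fits that of the guide, but the labels do not state the match, and a swap would leave each value at its column. Whether a KO line was a single clone or a pool is not stated in the study's methods.

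An integrin is a pair of 1 alpha and 1 beta subunit, and the pair sets the ligand. ITGB1 pairs with most alpha subunits, ITGB4 pairs with ITGA6 alone, and ITGAV pairs with several betas. A laminin is a trimer of an alpha, a beta and a gamma chain. In stratified epithelium the ITGA6 and ITGB4 pair sits in hemidesmosomes, the junctions that tie keratin filaments to laminin below the cell, while pairs with ITGB1 sit in focal adhesions that tie actin to the matrix.

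The libraries held 22172158 (WT), 23904587 (KO1) and 22409203 (KO2) counts. The target, FLI1, had 125 counts in WT, 11 in KO1 and 109 in KO2, with a log2 fold change of -1.09 (SE 0.84, edgeR adjusted p = 0.515). A small edit need not lower a transcript, so KO2 is a knockout by its label, and each direction below rests on the labels in this respect. Of 10 squamous epithelial markers 5 reached 1 FPKM in a library. TP63 (5, 0 and 0 counts in WT, KO1 and KO2), KRT5 (8, 0 and 7) and PKP1 (0 in each) were absent or nearly so, and CDH1 (14, 40 and 23) and KRT14 (16, 12 and 44) were low. PERP, a desmosome gene, rose (log2 fold change 1.06, edgeR adjusted p = 0.00314) and no other tested marker passed the test. KRT17 (996, 790 and 641), EPCAM (183, 160 and 93) and KRT6A (30, 5 and 3) were lower by value in both KO libraries, and DSP had 2055, 2306 and 2446 counts. Of 17 CD8 T cell markers none reached 1 FPKM and 11 were at 0 in all 3 libraries, CD3D, CD3E, CD8A and CD8B among them, and the list summed to 35, 31 and 30 counts. Whether less mRNA of a gene means fewer cells that express it or less in each cell cannot be told apart in bulk RNA.

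Of the 32 subunits, 15 reached 1 FPKM in at least 1 library, 7 of them alpha subunits, 3 beta subunits and 5 laminin chains. FPKM is the number of fragments scaled to transcript length and library size, so it can order genes where that length is sound. For ITGAE and LAMA2 the length implied in WT was 21.2% and 22.0% of the longest annotated transcript. Their FPKM may thus place them too high beside the others, and LAMA2, at 86, 68 and 51 counts, is among the 15 by FPKM so scaled. ITGA4, ITGA8, ITGA9 and ITGB6 were at 0 counts in every library, where the limit that a count of 0 allows is 3 counts per library. ITGA11, ITGAL, ITGB3 and LAMA1 had at most 9 counts in a library. The 8 genes named in these last sentences were too low to test, which left 24 of 32. Among the tested subunits, 7 had under 50 counts in each library.

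**Figure D1:**
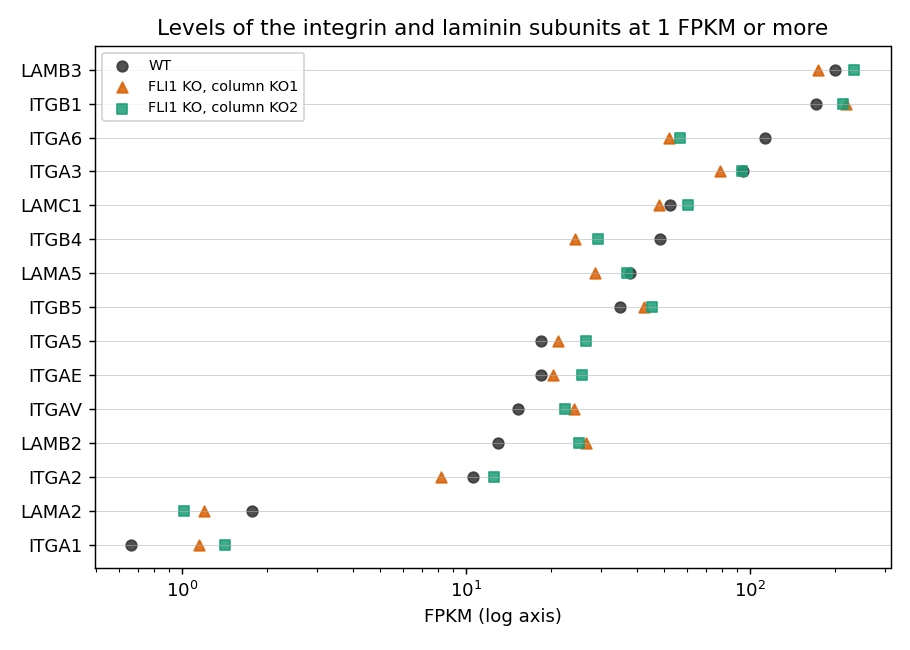
Level of each of the 15 subunits at 1 FPKM or more in at least 1 library, in FPKM on a log axis. The circle is WT, and the triangle and square are the KO1 and KO2 columns. LAMB3, ITGB1 and ITGA6 are the highest in WT, and the KO markers of ITGA6 and ITGB4 lie left of WT while those of LAMB2 lie right of it.

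Counts were compared between WT and both KO libraries with edgeR's quasi-likelihood test over the 15483 genes that passed the filter, and p-values were adjusted over all of them. A gene passed the test at an adjusted p under 0.05, and was called where it was also at least 2-fold apart. With 1 WT library the error comes from the spread between the KO libraries and from that of other genes. The KO libraries carry different guides, so their spread mixes any difference between guides with that between libraries. WT and each guide had 1 library, so the spread between cultures of the same kind was not measured. Of the tested subunits 1 was called, ITGA6, beside 4.78% of all tested genes. A further 2, ITGB4 (lower) and LAMB2 (higher), passed the adjusted p without a 2-fold change, so that 3 passed beside 6.88% of all tested genes. ITGA1 and ITGAV passed an unadjusted p under 0.05 and not the adjusted one. By counts scaled to library size (CPM) both KO libraries lay on the same side of WT for 18 of the 24, 10 higher and 8 lower, beside 79.2% of all tested genes. The median size of the log2 fold change was 0.35 over the tested subunits and 0.33 over all tested genes. The size of change of these genes was thus close to that of the whole table, and the results turn on a few subunits and their partners.

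**Figure D2:**
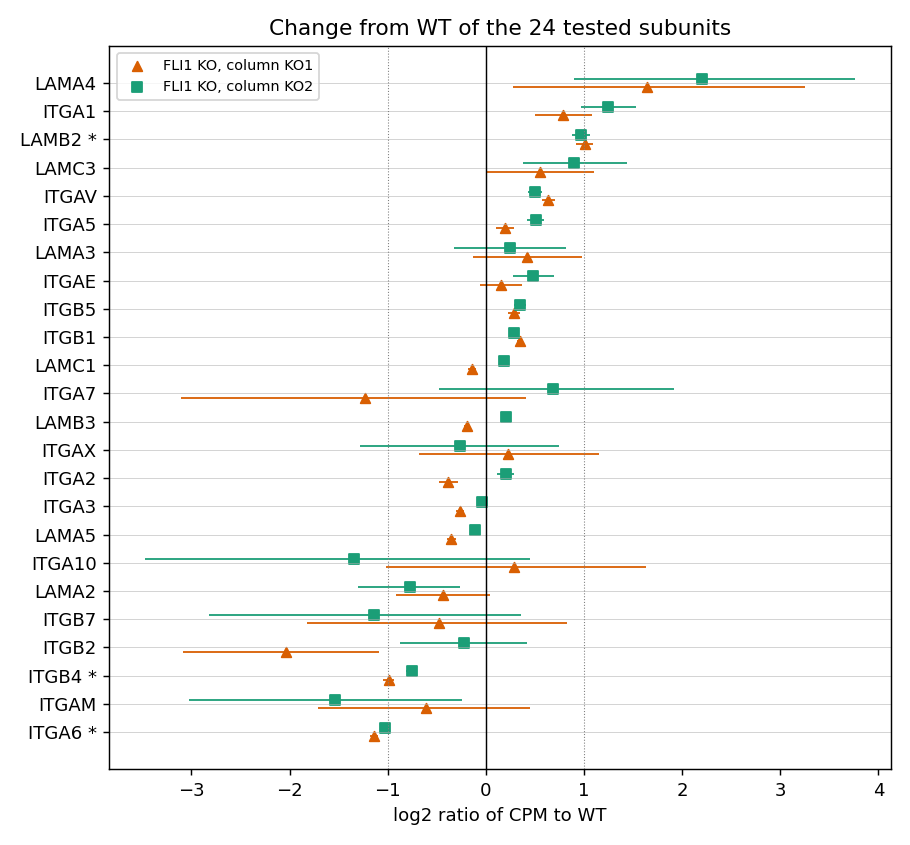
Change of the 24 tested subunits from WT, as log2 ratios of CPM, with 1 marker for each KO library. Lines are 95% exact binomial intervals of the count ratio and cover counting error only, dotted lines mark 2-fold, and asterisks mark the 3 subunits past an adjusted p of 0.05. ITGA6 and ITGB4 lie left of 0 and LAMB2 right of 0 in both KO libraries, and the genes with few counts have wide intervals.

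The sequences upstream of the ITGA6 and LAMB2 starts are shown because these subunits passed the test in opposite directions. GGAA is the core that ETS factors such as FLI1 bind. It was searched for on both strands in the 250 bases before each start in a RefSeq promoter table (GRCh38.p14). Of the 32 subunits, 22 had an entry there, and 21 of these held GGAA in a window. GGAA, or TTCC on the other strand, is in capitals. The ITGA6 window, chr2:172427086-172427335 on the plus strand, holds none:
ITGA6: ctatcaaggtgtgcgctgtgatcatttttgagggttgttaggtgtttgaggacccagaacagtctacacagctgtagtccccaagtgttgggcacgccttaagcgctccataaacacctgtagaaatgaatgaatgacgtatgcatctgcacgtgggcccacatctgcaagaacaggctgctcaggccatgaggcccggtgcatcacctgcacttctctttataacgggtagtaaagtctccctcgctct
The LAMB2 window, chr3:49133051-49133300 on the minus strand, holds 9, from -234 to -11 relative to the start:
LAMB2: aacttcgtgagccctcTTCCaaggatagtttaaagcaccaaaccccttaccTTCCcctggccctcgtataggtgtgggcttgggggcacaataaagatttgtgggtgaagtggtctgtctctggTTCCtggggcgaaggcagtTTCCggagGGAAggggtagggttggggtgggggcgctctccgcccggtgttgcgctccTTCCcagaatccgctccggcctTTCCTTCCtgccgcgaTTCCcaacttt
The table gives ITGA6 a second start, at position 172427586, with 1 match to the longer ETS form CCGGAAG at -159 relative to it, on the other strand and in capitals (chr2:172427416-172427444):
ITGA6: ccacgtcgtggCTTCCGGgcaggtaccgg
GGAA stood in 92.7% of all 35116 windows of this length, with a median of 3 matches, and in 27 of the 29 windows of the subunits. CCGGAAG, which contains GGAA, stood in 8.52% of all windows and in those of ITGA6, ITGB5 and LAMA5. A match is a run of letters and not a measured site. ITGB4 was not searched here.

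ITGA6, the alpha subunit shared by the hemidesmosome receptor with ITGB4 and a laminin receptor with ITGB1, fell in both KO libraries. Its gene (ENSG00000091409) lies on chromosome 2 from 172427354 to 172506459 (GRCh38). It had 15464 counts in WT, 7483 in KO1 and 7731 in KO2, or 113, 51.8 and 56.7 FPKM. The KO libraries lay close together (54.2 ± 3.46 FPKM, SD, n = 2), far below WT. That was a log2 fold change of -1.08 (SE 0.15, edgeR adjusted p = 0.00162), a 2.12-fold lower count. In KO1 alone the log2 ratio of CPM was -1.14 (exact binomial interval -1.18 to -1.10), and in KO2 alone it was -1.02 (-1.06 to -0.98).

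ITGB4, whose long cytoplasmic tail links the pair to plectin and keratins, fell with its partner. The gene (ENSG00000132470) lies on chromosome 17 from 75721328 to 75757818. It had 6619, 3558 and 3985 counts in WT, KO1 and KO2, or 48.1, 24.3 and 29.2 FPKM. The fit put the log2 fold change at -0.87 (SE 0.17, edgeR adjusted p = 0.0124), 1.83-fold, with log2 CPM ratios of -0.99 in KO1 and -0.76 in KO2. The ratio of ITGA6 to ITGB4, by FPKM, was 2.34 in WT, 2.13 in KO1 and 1.94 in KO2. Both members of the pair were lower in both KO libraries, with the ratio between them moving far less than either level.

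Whether ITGA6 and ITGB4 passed the adjusted p depended on the test used. The edgeR adjusted p of ITGA6 was 0.129 without the filter on low counts, and limma after quantile normalization gave 0.186, or 0.111 with voom weights, while DESeq2 gave 3.08e-07, and the log2 fold change stayed between -1.12 and -1.07 in each of these. For ITGB4 the range of adjusted p over these alternatives was 0.000697 to 0.242. The ITGB4 gene overlaps GALK1 on the other strand (185, 357 and 247 counts), whether counting used strand is not given, and GALK1 counts were higher in both KO libraries. Genes within 5 Mb were near 0 at the median, with a log2 fold change of 0.15 over 55 tested neighbours of ITGA6 and -0.10 over 117 of ITGB4.

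The other laminin-binding alpha subunit at a high level, ITGA3, did not pass the test. It pairs with ITGB1 to bind the laminins of epithelium, and had 10885, 9677 and 10787 counts, or 94.4, 78.5 and 93.8 FPKM in WT, KO1 and KO2. Its log2 fold change of -0.15 (SE 0.16) had an edgeR adjusted p of 0.671, and KO2 lay at the WT level. ITGA6 thus stood above ITGA3 in WT and below it in both KO libraries, with a ratio by FPKM of 1.19, 0.660 and 0.604. ITGA7, a laminin receptor of muscle, had 11, 5 and 18 counts.

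ITGB1, the common beta subunit, had 16197, 21989 and 20080 counts, or 171, 219 and 213 FPKM. Both KO libraries were above WT, with a log2 fold change of 0.32 (SE 0.15, edgeR adjusted p = 0.249) that did not pass the test. Summed over the 12 listed alpha subunits that can pair with ITGB1, alpha FPKM per ITGB1 FPKM was 1.47 in WT, 0.846 in KO1 and 1.00 in KO2. In WT the summed alpha subunits exceeded ITGB1 by FPKM, and in the KO libraries they were near or below its level. ITGA6, shared with ITGB4, and ITGAV, which pairs with several betas, are counted in full there. The excess in WT rests on ITGA6 (113 FPKM in WT), and without it the sum lies below ITGB1 in WT as well.

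Among the collagen-binding alpha subunits, the KO libraries lay on opposite sides of WT for ITGA2 and on the same side for ITGA1. ITGA2, the alpha subunit of an epithelial collagen receptor, had 2050, 1680 and 2401 counts, or 10.6, 8.17 and 12.5 FPKM. KO1 lay below WT and KO2 above it (log2 fold change -0.06, SE 0.23, edgeR adjusted p = 0.917). KO2 stood 0.59 above KO1 on the log2 CPM scale (exact binomial interval 0.50 to 0.68), a gap beyond counting error. ITGA1, the other main collagen-binding alpha subunit, was low, at 150, 277 and 362 counts or 0.663, 1.15 and 1.42 FPKM. Both KO libraries were above WT, and the log2 fold change of 1.04 (SE 0.31) missed the threshold with an edgeR adjusted p of 0.0781. PELO lies within the ITGA1 gene on the same strand and had 957, 1111 and 1072 counts, so some reads could belong to either. ITGA10, a collagen receptor of cartilage, had 10, 13 and 4 counts.

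The receptors for the RGD tripeptide of fibronectin and vitronectin were higher by value in both KO libraries, and none passed the test. ITGAV had 2655, 4413 and 3830 counts, or 15.3, 24.0 and 22.3 FPKM, with a log2 fold change of 0.57 (SE 0.18, edgeR adjusted p = 0.0887). ITGB5, its partner in a vitronectin receptor, had 3720, 4843 and 4810 counts, or 34.8, 42.4 and 45.3 FPKM (log2 fold change 0.32, SE 0.17, edgeR adjusted p = 0.326). The ratio of ITGAV to ITGB5 by FPKM was 0.440, 0.566 and 0.492. The other ITGAV partners measured were nearly absent: ITGB3 had 0, 0 and 2 counts, and ITGB6, known from epithelia as an activator of latent TGF-beta, was at 0. ITGA5, the fibronectin receptor alpha subunit, had 1911, 2336 and 2764 counts, or 18.4, 21.1 and 26.6 FPKM (log2 fold change 0.36, SE 0.19, edgeR adjusted p = 0.327).

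Grouped by ligand, the laminin-binding alphas (ITGA3, ITGA6, ITGA7) made up 76.4% of alpha subunit FPKM in WT, 63.4% in KO1 and 62.9% in KO2. Their summed level was 207, 130 and 151 FPKM. The RGD-binding alphas (ITGA5, ITGA8, ITGAV) made up 12.4%, 22.0% and 20.4%, at 33.7, 45.2 and 48.9 FPKM. The collagen-binding alphas made up 4.21%, 4.58% and 5.84%, and the leukocyte alphas, nearly all of it ITGAE, summed to 18.8, 20.6 and 25.9 FPKM. ITGAE FPKM was scaled to a short length, 21.2% of the longest transcript in WT, and it enters the total behind every share. The shares share a total, so a lower ITGA6 alone raises the other shares, and no test was made on them.

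Of the 7 leukocyte integrins, subunits known mainly from T cells and myeloid cells, only ITGAE reached 1 FPKM and none of the 5 tested passed the test. ITGAE, which pairs with ITGB7 on tissue-resident T cells to hold E-cadherin, had 328, 389 and 466 counts, or 18.3, 20.2 and 25.7 FPKM (log2 fold change 0.33, SE 0.24, edgeR adjusted p = 0.486). Its partner ITGB7 had 13, 10 and 6 counts, and the CD8 T cell markers named above were at or near 0 in the same libraries. The length implied by ITGAE counts and FPKM in WT, 0.807 kb, was 21.2% of the longest annotated transcript, against 76.0% to 111% for the 13 other detected subunits apart from LAMA2, and HASPIN, on the other strand inside the gene, had 684, 494 and 692 counts. Its FPKM was thus scaled to a length far under that of the annotated transcript. ITGB2, the common leukocyte beta subunit, had 46 counts in WT, 12 in KO1 and 40 in KO2 (log2 fold change -0.86, SE 0.70, edgeR adjusted p = 0.541), so only KO1 was low. ITGAM had 20, 14 and 7 counts, ITGAX 20, 25 and 17, ITGAL 9, 1 and 0, and ITGA4 none.

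Among laminin chains, LAMB2 rose in both KO libraries. It encodes the beta chain known from the basement membranes of kidney glomerulus, muscle and vessel walls. The gene (ENSG00000172037) lies on chromosome 3 from 49121114 to 49133118. It had 1553 counts in WT, 3333 in KO1 and 3093 in KO2, or 13.0, 26.5 and 25.0 FPKM. The KO values were close to each other (25.7 ± 1.07 FPKM, SD, n = 2) and clear of WT. The log2 fold change came to 0.99 (SE 0.18, edgeR adjusted p = 0.00727), 1.98-fold, just under the 2-fold threshold of a call. Log2 CPM ratios were 1.01 in KO1 and 0.97 in KO2, and the KO libraries did not differ beyond counting error (KO2 against KO1 -0.04, exact binomial interval -0.11 to 0.03). The adjusted p was 0.142 without the filter on low counts, within a range over the alternatives of 6.95e-05 (DESeq2) to 0.186 (limma after quantile normalization). Over 165 tested genes within 5 Mb the median log2 fold change was -0.11.

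LAMB3, the beta chain of the main epithelial laminin and a ligand chain for ITGA6 with ITGB4, was the most abundant subunit in WT. It had 19928, 18611 and 23281 counts, or 200, 174 and 233 FPKM (log2 fold change 0.02, SE 0.18, edgeR adjusted p = 0.968). KO1 was below WT and KO2 above it, 0.39 apart on the log2 CPM scale. LAMA3, the alpha chain that completes that laminin, was low by contrast at 49, 70 and 59 counts, or 0.184, 0.251 and 0.285 FPKM, so that LAMB3 exceeded LAMA3 by 1088, 695 and 819 times by FPKM. By CPM over the length implied in WT the ratio was 1088, 711 and 1056, so its size in KO2 depends on the measure. That gap stood in WT as in the KO libraries, and the LAMA3 fold change (log2 0.33, SE 0.46, edgeR adjusted p = 0.738) did not pass the test.

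LAMA5 and LAMC1, alpha and gamma chains that occur in most adult basement membranes, were expressed beside LAMB2. LAMA5 had 8481, 7099 and 7991 counts, or 37.8, 28.6 and 36.9 FPKM (log2 fold change -0.23, SE 0.17, edgeR adjusted p = 0.503). The gene overlaps ADRM1 on the other strand, which had 4977, 5064 and 4984 counts. LAMC1 had 10220, 9926 and 11802 counts, or 52.4, 47.9 and 60.8 FPKM (log2 fold change 0.03, SE 0.18, edgeR adjusted p = 0.942). Neither partner passed the test, though LAMA5 lay below WT in KO1 (log2 CPM ratio -0.35, exact binomial interval -0.40 to -0.31). LAMB2 per LAMA5 was 0.343, 0.925 and 0.677 by FPKM, and LAMB2 per LAMC1 was 0.247, 0.553 and 0.411. The KO1 ratio to LAMA5 thus holds a lower LAMA5 as well as a higher LAMB2. LAMB2 had the lowest FPKM of these 3 chains in each library. Laminin beta chains other than LAMB2 and LAMB3 were not analysed here, so these ratios do not measure the whole supply of beta chain.

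The remaining laminin chains were low. LAMA2, known from muscle and nerve, had 86, 68 and 51 counts, or 1.77, 1.20 and 1.02 FPKM (log2 fold change -0.59, SE 0.43, edgeR adjusted p = 0.482), and its implied length of 2.19 kb was 22.0% of the longest transcript. LAMA4, known from vessel walls, had 6, 20 and 28 counts, higher in both KO libraries with a log2 fold change of 1.92 (SE 0.91, edgeR adjusted p = 0.262) that did not pass the test. LAMC3 had 48, 75 and 91 counts (log2 fold change 0.73, SE 0.45, edgeR adjusted p = 0.400), and LAMA1, a chain of the embryo, had 2, 8 and 9. LAMA4 is also made by endothelium, and of 5 endothelial markers CDH5 rose (27, 96 and 194 counts, log2 fold change 2.37, edgeR adjusted p = 0.0269), PECAM1 had 22, 61 and 75 counts, TEK had 37, 32 and 12, VWF had 8, 1 and 4, and KDR was at 0. Their summed level was 0.823 FPKM in WT, 1.55 in KO1 and 2.64 in KO2, and their part in the laminin values was not tested.

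The partners of these receptors were read from lists chosen with earlier results known. None of the 5 tested hemidesmosome partners of ITGA6 and ITGB4 passed the test (median log2 fold change 0.28, against 0.00098 over all tested genes). COL17A1, the hemidesmosomal collagen, had 250, 195 and 241 counts, and DST, which codes for the plakin BPAG1, 2659, 2003 and 2797. By FPKM, DST was at 6.92, 8.60 and 7.57, so its direction in KO1 depends on the measure. CD151, a tetraspanin bound to laminin-binding integrins, had 3809, 5725 and 5361 (log2 fold change 0.48, SE 0.17, edgeR adjusted p = 0.133). CD151 therefore stood above WT in both KO libraries by value, opposite to ITGA6 and ITGB4.

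Of 19 tested integrin ligands other than laminins, 2 were called higher and 4 lower, beside 4.78% of all tested genes called. A further 1 passed the adjusted p alone, beside 6.88% of all tested genes past that p, called genes included. The median log2 fold change of the list was 0.23. ICAM1, the ligand of the ITGB2 integrins on lymphocytes and a gene induced by interferon gamma, had 4105, 623 and 520 counts in WT, KO1 and KO2 (log2 fold change -2.91, SE 0.17, edgeR adjusted p = 4.49e-06), a 7.50-fold lower count in the KO libraries. TNC, a matrix glycoprotein bound by ITGAV and ITGB1 integrins, had 2701, 526 and 843 (-2.03, SE 0.25, edgeR adjusted p = 0.000712). EDIL3, an RGD protein bound by ITGAV pairs, had 2801, 858 and 1224 (-1.48, SE 0.22, edgeR adjusted p = 0.0024). These 3 fell in both KO libraries, and for each of them the receptor subunits named did not pass the test. LTBP1, which binds latent TGF-beta in the matrix, rose from 165 to 430 and 309 counts (1.10, SE 0.29, edgeR adjusted p = 0.0453).

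Of 16 tested basement membrane partners of laminins 1 was called, beside 4.78% of all tested genes. It was ADAMTS1, a secreted protease (1089, 398 and 654 counts, log2 fold change -1.10, SE 0.27, edgeR adjusted p = 0.035). The median of the list was -0.03. Of 31 tested integrin adaptors and focal adhesion proteins 1 was called higher and 1 lower, beside the same 4.78%, and the median was -0.12. TNS1, a tensin that binds integrin beta tails and actin, fell from 2116 to 273 and 479 counts (-2.54, SE 0.28, edgeR adjusted p = 0.000321). FYN, a Src-family kinase, rose from 17 to 166 and 167 counts (3.22, SE 0.45, edgeR adjusted p = 0.00158). FYN is also a T cell kinase, and the T cell markers were at or near 0 in the same libraries. Which cells the FYN counts came from was not tested.

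**Figure D3:**
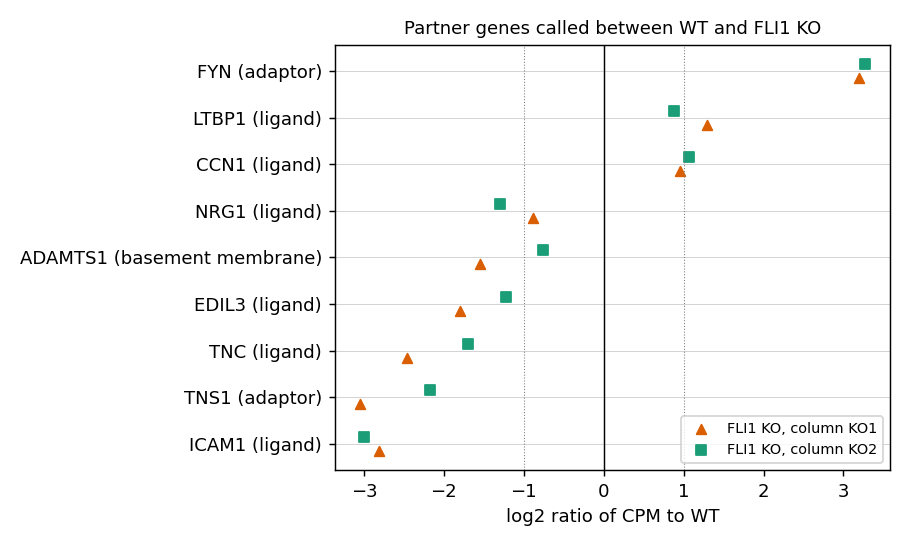
Genes of the ligand, basement membrane and adaptor lists that were called (adjusted p under 0.05 and at least 2-fold), as log2 ratios of CPM to WT with 1 marker for each KO library and dotted lines at 2-fold. FYN is the farthest above WT and ICAM1 and TNS1 the farthest below, and the markers of the 2 KO libraries lie on the same side of WT for every gene plotted.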

How the data were processed

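Poly-A RNA-seq of 3 HK1 libraries (1 WT, 2 FLI1 KO, grouped by the genotype label) was used. KO columns were matched to guides by number alone. Per the labels, reads were processed by the authors with fastp (0.23.2), HISAT2 (2.0.4) and StringTie (1.3.4d) on GRCh38. Deposited values were raw read counts of each gene, as whole numbers, and FPKM of the same genes, both made by the authors. What made the counts, and with what use of strand, is not stated. The fitted table had 61550 genes and 2 empty lines. All 32 subunit IDs were in GENCODE v44, 31 with the same start and end.

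Counts were tested with edgeR (4.0.16, R 4.3.3; glmQLFit, glmQLFTest, two-sided) after TMM scaling (factors 1.0013, 0.9917 and 1.0071 for WT, KO1 and KO2) and filterByExpr at a minimum count of 10, with 1 residual degree of freedom (9.56 prior), a common coefficient of variation of 0.187, and Benjamini-Hochberg adjustment over 15483 genes. The fit was tested on simulated data. Changes per library used log2(FPKM + 1), which understates changes of low genes, and log2 CPM ratios with 95% exact binomial (Clopper-Pearson) intervals. Intervals and the floor of 3 counts cover counting error only. Alternatives were median-of-ratios scaling, quantile normalization with limma (3.58.1), no filter, a minimum of 50 counts, DESeq2 (1.42.0), other pseudocounts and folds, and leaving out each KO library; voom with quantile normalization, and the neighbours within 5 Mb, were added after seeing the data.

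Values in every library are given for subunits called or at 1 FPKM or more. From each other list up to 4 called genes were named by fold change, up to 2 by size where none was called, beside FLI1; other genes were named after their values were seen, and some results are not reported here. The subunits and lists were chosen with earlier results of these data known.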

Additional observations from a re-analysis of the deposited data

How the results depend on the processing

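The direction of ITGA6, ITGB4 and LAMB2 did not change under any alternative run. Subunits called numbered 1, and 1 again with median-of-ratios scaling, a minimum of 50 counts and DESeq2. The count was 0 with quantile normalization in limma, 0 with voom after quantile normalization and 0 without the filter on low counts, where 6, 5 and 7 subunits had an unadjusted p under 0.05. It was 3 on the adjusted p alone. Those 3 subunits past the adjusted p became 0 under the same 3 alternatives. The same alternatives also took most calls from the whole table: 740 genes were called in edgeR, 0 with quantile normalization in limma, 24 with voom and 41 without the filter, so a lost call there is not particular to the subunits. With 1 KO library left out there is no spread left to test, and 5 to 6 of the subunits tested above were at least 2-fold from WT by CPM. These were ITGA6, LAMB2, LAMA4, ITGA7 and ITGB2 with KO1 kept, and ITGA6, ITGA1, LAMA4, ITGA10, ITGAM and ITGB7 with KO2 kept, so LAMB2 passes 2-fold in KO1 alone. Of the same tested subunits, 0 were at least 2-fold from WT in both KO libraries by log2(FPKM + 1). By CPM 2 were (LAMA4 and ITGA6), and 3 were at 1.5-fold by log2(FPKM + 1) (LAMB2, ITGA6 and ITGB4). LAMA1 (2, 8 and 9 counts) and ITGAL (9, 1 and 0), too low to test, also lay past 2-fold by CPM in both KO libraries. At 0.5 and 5 FPKM in place of 1, 17 and 13 subunits were detected in place of 15. LTBP1 lost its call in DESeq2 (adjusted p = 0.0899), and with a minimum of 50 counts the calls of LTBP1 (0.0531), ADAMTS1 (0.0540) and CDH5 (0.0528) were lost in edgeR. Under quantile normalization, voom and no filter TNC, EDIL3, LTBP1, ADAMTS1, TNS1, FYN, CCN1, NRG1, CDH5, PERP and CD68 did not pass either, whereas ICAM1 passed with voom (0.0486) and without the filter (0.029) and not with quantile normalization in limma (0.141). No paired analysis was possible because the WT group holds 1 library. Depth limits the 7 tested subunits under 50 counts, whose fold changes have an SE of 0.70 or more.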

Other observations

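Of 6 myeloid markers, CD68, a lysosomal glycoprotein also made outside macrophages, fell from 294 counts in WT to 68 in KO1 and 71 in KO2 (log2 fold change -2.14, edgeR adjusted p = 0.00249), and it was the only one past the test. CD14 had 13, 28 and 28 counts (log2 fold change 1.04, edgeR adjusted p = 0.464), CSF1R had 30, 33 and 21, FCER1G had 0, 1 and 3, and LYZ and TYROBP were at 0 in each library. Of 6 fibroblast markers, DCN and PDGFRA were at 0 and none of the 3 tested passed the test. The matricellular ligand CCN1 (9861, 20439 and 21004 counts in WT, KO1 and KO2, log2 fold change 1.01, edgeR adjusted p = 0.00272) rose in both KO libraries. NRG1, a growth factor listed among the ligands, had 828, 480 and 342 counts (log2 fold change -1.07, edgeR adjusted p = 0.014). These genes were named after their values were seen, and CD68, CCN1 and NRG1 did not pass under 3 of the alternatives, as given above.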
